A study of Bos taurus with 16 samples.

Results

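Corpora lutea of 4 Japanese Black cows on days 150-160 of pregnancy were compared with those of 4 cows on days 20-25, 8 arrays of the 16 in the series. The arrays were taken by their titles. The labels call the later group the mid phase of pregnancy and the earlier one its first early phase, and the series' design text counts the day of insemination as day 1. The cows were animals of the institute's own ranch, with no treatment named, and the ovaries were taken shortly after exsanguination. Each array held RNA of 1 animal, so n counts cows. Pregnant cows on days 40-45 and cyclic cows on days 10-12, 4 each, entered the fit to steady the estimate of the spread. Whole glands were measured, so a mixture of luteal, vascular, stromal and immune cells stands behind every value.

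The corpus luteum forms from the ruptured follicle and secretes the progesterone that a pregnancy needs. In ruminants it also makes oxytocin and carries receptors for prostaglandin F2 alpha, the signal that ends its life in a cycle without conception. Around the time of maternal recognition the ruminant conceptus releases interferon tau, which spares the gland and switches on interferon-stimulated genes in maternal tissues. The gland that is rescued then persists through gestation.

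All values are levels on a log2 scale, the processed signal of a probe relative to the 75th percentile of its array, and a change is the mean level on days 150-160 minus that on days 20-25. A level of 0 thus equals the 75th percentile, and a change of 1 is a doubling. The 75th percentile of the signal lay between 2168 and 2682 on the days 150-160 arrays and between 2048 and 3475 on the days 20-25 arrays, with 74.2% to 76.6% of their probes, against 73.0% to 79.5%, well above background. Each of 2 slides carried 2 arrays of every group, and the fit had slide as a block. Within a slide the days 150-160 arrays lay in the second row and the days 20-25 arrays in the first, so position and stage cannot be told apart. Gland age and stage cannot be told apart either. Replicate 4 of days 20-25 stood apart on the second principal component, at 74.5 against -24.6 to 17.9 for the other arrays, and correlated at 0.960 on average with the rest of its group, where the other 7 arrays reached 0.977 to 0.980. Without it 15 of the 48 named genes that were called missed the threshold, and each of these is given below. STAR, HSD3B1 and CYP11A1, which define steroid-making luteal cells, were among the brightest probes on all 8 arrays, with levels of 6.08 to 7.94.

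The array reads each transcript with probes of 60 bases. The probes below are shown, as the scanner files list them, for 5 transcripts of the gene groups described here, to show what was hybridised.
TNFAIP6: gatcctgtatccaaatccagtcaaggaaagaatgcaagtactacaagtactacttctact
COL4A1: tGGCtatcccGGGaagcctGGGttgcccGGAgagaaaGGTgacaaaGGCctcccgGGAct
FN1: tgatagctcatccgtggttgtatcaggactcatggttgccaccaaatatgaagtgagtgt
MEST: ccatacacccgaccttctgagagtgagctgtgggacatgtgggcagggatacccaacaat
B3GAT2: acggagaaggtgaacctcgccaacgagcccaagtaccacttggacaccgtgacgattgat
Capitals in the COL4A1 probe mark the 7 glycine codons among the 19 codons of its reading frame, the regular spacing of a collagen helix. FN1 and MEST each have 1 further probe, which was the brighter of the pair and stands for the gene below.

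Between days 150-160 and days 20-25 the gland's transcript levels differed at 245 of 11718 tested probes (2.09%), by limma with Benjamini-Hochberg adjustment at an adjusted p under 0.05. Of these, 101 were higher on days 150-160 (0.862% of the probes tested) and 144 were lower (1.23%). At least 2-fold changes made up 161 of them, 73 higher and 88 lower. The called rises had a median of 1.27 and reached 8.40, for the eotaxin CCL11. The called falls had a median of -1.14 and reached -7.19, for oxytocin. Of the 245 probes, 226 had 4 arrays of days 150-160 that did not overlap the 4 of days 20-25, where 8.69% of all tested probes did not overlap (3.56% higher and 5.13% lower). A symbol could be given to 122 of the called probes, standing for 120 genes. These were 2.19% of the 5490 genes tested, 1% called higher and 1.18% lower, the shares to hold beside each list count below. The call count depended on single cows: it was 98 without replicate 2 of days 150-160, 158 without replicate 4 of that group, and 119 and 112 without replicates 1 and 2 of days 20-25. Of the 245, 77 were called without any 1 of the 16 arrays.

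**Figure D1:**
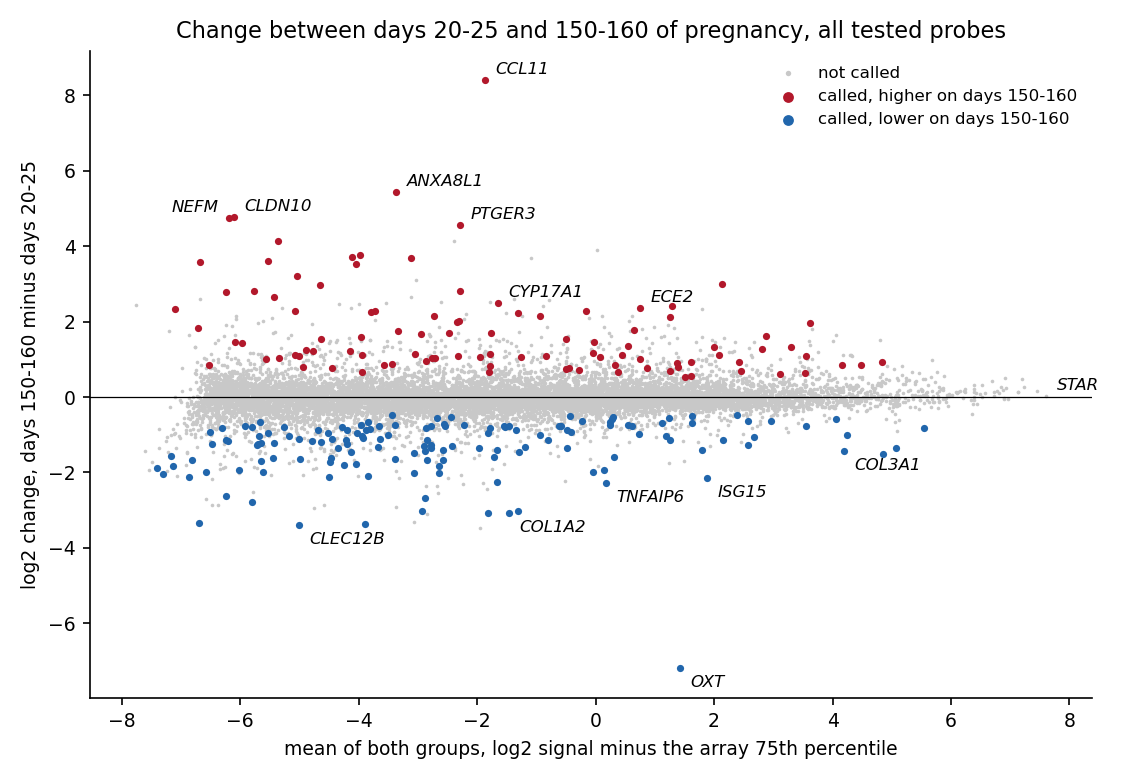
Each point is 1 of the 11718 tested probes, placed by its mean level over both groups (horizontal axis, log2 signal minus the array's 75th percentile) and its log2 change, days 150-160 minus days 20-25 (vertical axis). Of the 245 called probes, the 101 that were higher are red and the 144 that were lower are blue; CCL11 at 8.40 and OXT at -7.19 lie far from the rest, and STAR at 0.02 lies on the zero line. For probes not above background in a whole group, such as CLDN10 and NEFM, the plotted change is the measured difference and not a bound.

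Oxytocin had the largest of the called falls. OXT, the precursor of the peptide hormone and its carrier neurophysin, had levels of -2.28, -0.77, -3.03 and -2.60 on the 4 days 150-160 arrays, against 5.03, 5.35, 4.40 and 5.32 on the days 20-25 arrays. The groups lay far apart, with every early gland above every later one. The change was -7.19 (SE 0.46, limma adjusted p = 4.76e-06), and it was called without any 1 array. On days 40-45 the mean level was 1.75 ± 0.67 (SD, n = 4), between the ends. In a bulk tissue, fewer cells of a type and less RNA per cell cannot be told apart, which holds for this and every change below.

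A pair of prostaglandin receptors were higher in the later glands. PTGER3, a receptor for prostaglandin E2, had levels of -0.62, 0.43, -0.25 and 0.40 on days 150-160, against -4.69, -5.38, -3.99 and -4.22 on days 20-25, a change of 4.56 (SE 0.47, adjusted p = 0.000334). Every later gland stood far above every early one. PTGFR, the receptor for prostaglandin F2 alpha, was already bright and rose by less. Its levels were 4.87, 5.13, 4.83 and 4.81 on days 150-160, against 4.02, 4.03, 4.11 and 4.08 on days 20-25, a change of 0.85 (SE 0.20, adjusted p = 0.0420). The 4 values within either group were nearly equal, and the groups did not overlap. The SD of PTGFR was 0.15 on days 150-160, 0.04 on days 20-25 and 0.07 on days 40-45, against 0.56 in cyclic cows. The fit shared its spread over all these groups, and with the 8 arrays alone PTGFR stayed called. In the shared fit the call of PTGFR was lost in 13 of the 16 fits without 1 array. The adjusted p was 0.0928 without replicate 4 of days 20-25 and 0.135 without replicate 2 of days 150-160. PTGER3 and PTGFR were the 2 called among 13 tested genes of prostaglandin synthesis and response, whose median change was 0.04. Of 5490 genes 2.19% were called, 1% higher and 1.18% lower, and the median over all genes was -0.03. The prostaglandin-degrading enzyme HPGD was the lowest of the list at -1.87 and did not pass (adjusted p = 0.25).

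Among 18 tested chemokine ligands CCL11 alone was called. CCL11, an eosinophil-attracting CC chemokine, had levels of 2.22, 3.11, 1.79 and 2.19 on days 150-160, against -5.14, -9.15, -5.99 and -4.00 on days 20-25. The early glands were dim and scattered, and replicate 2 among them was not above background, while the later ones were bright and alike. The change was 8.40 (SE 0.94, adjusted p = 0.000817), and between 7.27 and 9.16 when any 1 array was left out. The median change of the 18 ligands was -0.01, and the other 17 lay between -0.995 and 1.80 without passing the test. XCL1, lymphotactin, had levels of -3.81 ± 0.63 on days 150-160 and -2.81 ± 0.72 on days 20-25 (SD, n = 4 each), a change of -0.995 (SE 0.67, adjusted p = 0.5). Of the eosinophil and mast cell markers 1 of 3 genes on the array was bright enough to test, the tryptase gene TPSB2, with a change of 0.05. The 6 tested chemokine receptors and 12 tested cytokines held no call.

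The genes of progesterone synthesis were high throughout, and their differences did not pass the test. STAR, which moves cholesterol into the mitochondrion, had levels of 7.62 ± 0.10 on days 150-160 and 7.60 ± 0.33 on days 20-25 (SD, n = 4 each), a change of 0.02 (SE 0.17, adjusted p = 0.966). CYP11A1, the side-chain cleavage enzyme, had a change of 0.31 (SE 0.10, adjusted p = 0.15), and HSD3B1, which makes progesterone, one of 0.49 (SE 0.15, adjusted p = 0.11) with arrays that did not overlap. The luteinizing hormone receptor LHCGR had a change of 1.16 (SE 0.42, adjusted p = 0.183), the progesterone receptor PGR one of 0.31 (SE 0.20, adjusted p = 0.483) and SOCS2, a brake on growth hormone and cytokine signals, one of 0.43 (SE 0.21, adjusted p = 0.34). The 17 tested genes of the steroidogenesis list had a median of 0.16, and 1% of all genes were called higher. CYP17A1, the hydroxylase and lyase that leads to androgens, was the 1 called gene among the 17. Its levels were -1.51, -0.15, -1.52 and 1.56 on days 150-160, against -2.77, -3.16, -3.37 and -2.24 on days 20-25. Replicate 4 of the later group was the highest, and no later gland reached down to the early ones. The change was 2.48 (SE 0.53, adjusted p = 0.0298). It missed the threshold without replicate 2 of days 150-160 (adjusted p = 0.0936). It also did without replicate 1, 2 or 3 of days 20-25 (adjusted p = 0.0664, 0.0837 and 0.0708). The SD of CYP17A1 was 1.46 on days 150-160, against 0.50 on days 20-25, 0.23 on days 40-45 and 0.43 in cyclic cows. The fit shared its spread over all these groups. With the 8 arrays alone CYP17A1 was not called (adjusted p = 0.15), so its call depended on the arrays of the other groups. Of the 17 genes 3 had later arrays all above the earlier ones, where 3.52% of all genes did. Summed signal of the granulosa and theca cell markers, CYP17A1 among them, ranged from 38.3 to 177 on days 150-160 and from 40.5 to 99.0 on days 20-25, in units of the array's 75th percentile, and their part in the result was not tested.

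**Figure D2:**
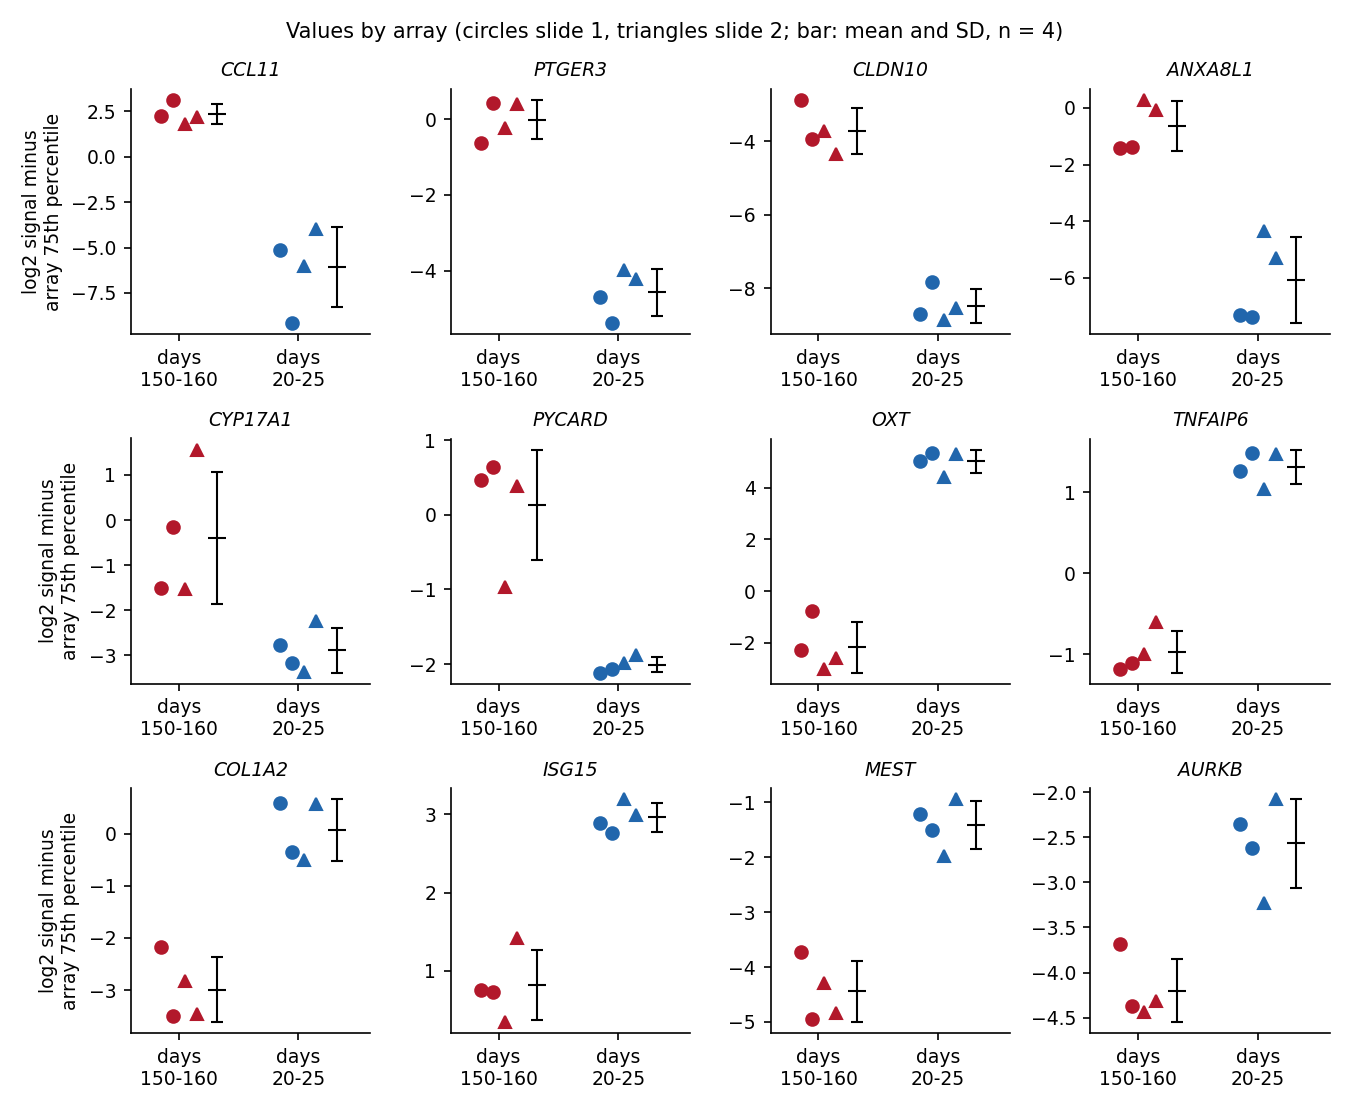
Levels of 12 named genes (vertical axes, log2 signal minus the array's 75th percentile) on the 4 arrays of days 150-160 (red) and of days 20-25 (blue), circles for slide 1 and triangles for slide 2, with the mean and SD beside them. In each panel the 2 groups are separated by a gap; it is wide for CCL11 and OXT and narrow for AURKB, whose nearest arrays are at -3.68 and -3.23.

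Extracellular matrix, with 36 tested genes, was the list with the most called falls by count. The lists differ in size, and 5 of 23 tested interferon-stimulated genes were also called lower. Of the 36 genes 28 had negative and 8 positive changes, with a median of -0.54. Called were 7 falls and 1 rise, where 1.18% of all genes were called lower and 1% higher. The arrays of 10 of the 36 did not overlap and were lower on days 150-160, where 5.65% of all genes were so placed. COL1A2, a chain of the main fibrillar collagen, had levels of -2.18, -3.50, -2.82 and -3.46 on days 150-160, against 0.59, -0.36, -0.50 and 0.58 on days 20-25, a change of -3.07 (SE 0.41, adjusted p = 0.00271). MFAP2, a protein of elastic microfibrils, fell by 3.02 (SE 0.61, adjusted p = 0.0241). LOXL1, an enzyme that cross-links elastin, fell by 2.01 (SE 0.39, adjusted p = 0.0180). FN1, fibronectin, had levels of -0.62, -0.31, 0.00 and -1.02 on days 150-160, against 0.94, 0.93, 1.00 and 1.58 on days 20-25, a change of -1.60 (SE 0.25, adjusted p = 0.00591). The other probe of FN1, the one printed above, gave -1.19 (SE 0.32) and did not pass (adjusted p = 0.071). COL3A1, the second fibrillar collagen, fell by 1.43 (SE 0.31, adjusted p = 0.0312) and the basement membrane collagen COL4A1 by 1.12 (SE 0.19, adjusted p = 0.00999). The last of the 7 was SPARC, a collagen-binding glycoprotein that was named after its values were seen, at -0.82 (adjusted p = 0.0450).

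The matrix genes did not move as one. OGN, the proteoglycan osteoglycin, rose by 1.82 (SE 0.42, adjusted p = 0.0377), from a probe above background on 3 of 4 arrays of days 150-160 and 2 of 4 of days 20-25 whose groups overlapped. The small proteoglycans DCN, BGN and LUM had changes of -0.55, -0.23 and -0.62 that did not pass, and the matrix Gla protein MGP had -0.03. Elastin, ELN, had -0.35 and the laminin chains LAMB2 and LAMA2 had -0.23 and 0.15. Replicate 4 of days 20-25 had the highest level of its group for MFAP2, LOXL1, COL3A1, FN1 and COL4A1. Without it the list had 5 falls and 0 rises, a median of -0.39, and COL3A1 and MFAP2 were no longer called (-1.17 with adjusted p = 0.0746 and -2.56 with adjusted p = 0.059). Without replicate 2 of days 150-160 MFAP2, LOXL1, COL3A1 and OGN missed the threshold (adjusted p = 0.0833, 0.0703, 0.0979 and 0.122), while COL1A2, FN1 and COL4A1 were called without any 1 array. OGN was also lost without replicate 4 of days 20-25 (adjusted p = 0.0814) and with normexp, another background correction (0.56, adjusted p = 0.192), which gave COL4A1 -0.63 (adjusted p = 0.0420). Normexp was run with 50 added to every signal, which by itself makes the log2 changes of dim probes smaller, here and below.

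Most fibroblast markers tested here are also genes of the matrix list, so the counts of both are not independent. Of 8 tested markers 7 had negative changes, with a median of -0.67. The calls were those of COL1A2, COL3A1 and OGN, which the matrix list also holds, where 2.19% of all genes were called. The summed signal of the 8 markers ranged from 31.2 to 43.6 on days 150-160 and from 60.6 to 79.7 on days 20-25, with no overlap, a sum that holds the called COL1A2 and COL3A1. Without replicate 4 of days 20-25 the list had 1 call. The markers DCN, LUM, COL1A2 and COL3A1 were above background on every array. Their part in the result was not tested. Endothelial markers had a median change of -0.09 over 20 genes with 0 called, and those of smooth muscle cells and pericytes 0.40 over 11 genes with 0 called.

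Some secreted proteins and proteases of the matrix were among the named falls, while the list of matrix proteases and inhibitors as a whole had 20 negative and 12 positive changes. TNFAIP6, a hyaluronan-binding protein, had levels of -1.17, -1.10, -0.99 and -0.60 on days 150-160, against 1.25, 1.49, 1.04 and 1.47 on days 20-25, a change of -2.28 (SE 0.31, adjusted p = 0.00289). Its groups were tight and well separated. SPON1, a secreted adhesion protein, fell by 3.06 (SE 0.54, adjusted p = 0.0119) and CTHRC1, a secreted protein with a collagen repeat, by 1.997 (SE 0.36, adjusted p = 0.0137). The proteases ADAM12 and MMP2 fell by 2.01 (SE 0.35, adjusted p = 0.0106) and 1.59 (SE 0.28, adjusted p = 0.0107). They were the 2 called falls among 32 tested matrix proteases and inhibitors, and the 1 called rise was that of SERPINA1. Of all genes 1.18% were called lower and 1% higher. The list's median was -0.19 over both slides, 0.14 on slide 1 and -0.43 on slide 2. Replicate 4 of days 20-25 had the highest early level of SPON1, CTHRC1, ADAM12 and MMP2. For MMP2 it was at 0.09, against -1.54 to -1.02, and the change was -0.96 within slide 1 and -2.21 within slide 2. Without that array each stayed called, with MMP2 at -1.25 (adjusted p = 0.0111). SERPINA1, an inhibitor of neutrophil elastase, averaged -4.85 ± 0.55 on days 150-160 and -7.63 ± 0.60 on days 20-25, where no array was above background (SD, n = 4 each). It was therefore at least 3.53-fold higher (adjusted p = 0.00539), and SERPINA1 had a change of 1.05 with normexp (adjusted p = 0.0129). For such probes the bound sets the bright group's mean against the dimmest signal well above background, or the probe's own where higher. It holds for the processed signals, carries no error, and is not a confidence limit. Normexp, with its added offset, gave changes smaller than this bound for the named genes so treated.

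Single receptors were among the named falls. FGFR2, a receptor for fibroblast growth factors, fell by 1.26 (SE 0.26, adjusted p = 0.0250). It was the 1 call among 25 angiogenic factors and receptors, whose median was 0.09, where 1.18% of all genes were called lower. A second probe without a symbol shares all 60 bases with that of FGFR2 and gave -0.47 (SE 0.61, adjusted p = 0.747). On replicate 4 of days 20-25 the levels of the pair were -2.61 and -5.18, and on replicate 1 of that group -2.24 and -1.87. On replicates 2 and 3 of that group the second probe was at -1.88 and -1.10. Without replicate 4 of days 20-25 FGFR2 had -1.40 (adjusted p = 0.0280). ROR2, a receptor for Wnt ligands, fell by 2.13 (SE 0.42, adjusted p = 0.0199, and 0.0537 without replicate 4 of days 20-25), or by 1.12 with normexp (adjusted p = 0.0259). The 19 tested genes of the Wnt and Notch list had 0 calls and a median of 0.03. The secreted follistatin-like protein FSTL1 fell by 0.76 (SE 0.17, adjusted p = 0.0342). Without replicate 2 of days 150-160 ROR2 and FSTL1 missed the threshold (adjusted p = 0.0751 and 0.103), as did FGFR2 without replicate 2 of days 20-25 (adjusted p = 0.0655).

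Several interferon-stimulated genes were lower in the later glands. Of 23 tested genes 5 fell and 0 rose, where 1.18% of all genes were called lower, and 12 had later arrays all below the earlier ones, where 5.65% of all genes did. The median change of the 23 was -0.67, or -0.40 with normexp. ISG15, a ubiquitin-like modifier, had levels of 0.75, 0.73, 0.34 and 1.42 on days 150-160, against 2.90, 2.76, 3.20 and 2.99 on days 20-25, a change of -2.15 (SE 0.45, adjusted p = 0.0272). The early glands were alike in this gene, and all stood above the later ones. USP18, the protease that removes ISG15, fell by 1.33 (SE 0.31, adjusted p = 0.0449), and DHX58, a cytosolic RNA sensor, by 1.35 (SE 0.26, adjusted p = 0.0180). EIF2AK2, the kinase activated by double-stranded RNA, fell by 0.65 (SE 0.13, adjusted p = 0.0200). LGALS9, a galectin, was not above background on any days 150-160 array, averaged -7.11 ± 0.60 there and -5.85 ± 0.25 on days 20-25 (SD, n = 4 each), and was at least 1.51-fold lower (adjusted p = 0.0250). MX1 and MX2, the antiviral GTPases, had changes of -0.98 (adjusted p = 0.17) and -0.67 (adjusted p = 0.082), and RSAD2, an antiviral enzyme, one of -0.94 (adjusted p = 0.073), each with groups that did not overlap. IRF1, an interferon regulatory transcription factor, had a change of 0.47 (adjusted p = 0.55). A called probe without a symbol shared 53 of its 60 bases with that of the RNA sensor RIGI, and the pair gave -0.92 (adjusted p = 0.0359) and -0.91 (adjusted p = 0.0541).

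On days 40-45 the mean of ISG15 was 0.96 ± 0.57 (SD, n = 4), near that of days 150-160. By the group means, which come from different cows, 92.9% of its fall lay before days 40-45. The step from days 20-25 to days 40-45 was itself not called for ISG15 (-1.997, limma adjusted p = 0.19). Without replicate 4 of days 20-25 the list had 2 falls, a median of -0.65, and ISG15 had -2.20 (adjusted p = 0.0544), USP18 -1.28 (adjusted p = 0.0996) and LGALS9 an adjusted p of 0.0541. With normexp EIF2AK2 and LGALS9 missed the threshold (-0.40 with adjusted p = 0.0904 and -0.17 with adjusted p = 0.61). The SD of ISG15 was 0.45 on days 150-160 and 0.18 on days 20-25, against 1.18 in cyclic cows, whose arrays share the fit. With the 8 arrays alone ISG15, USP18 and DHX58 stayed called, while EIF2AK2 and LGALS9 did not. Each of the 5 calls was lost in some fit without 1 array. The highest adjusted p was 0.0812 for ISG15 and 0.117 for USP18, both without replicate 1 of days 20-25, 0.0703 for DHX58 without replicate 2 of days 150-160, and 0.0592 for EIF2AK2 and 0.0650 for LGALS9 without replicate 4 of days 150-160.

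**Figure D3:**
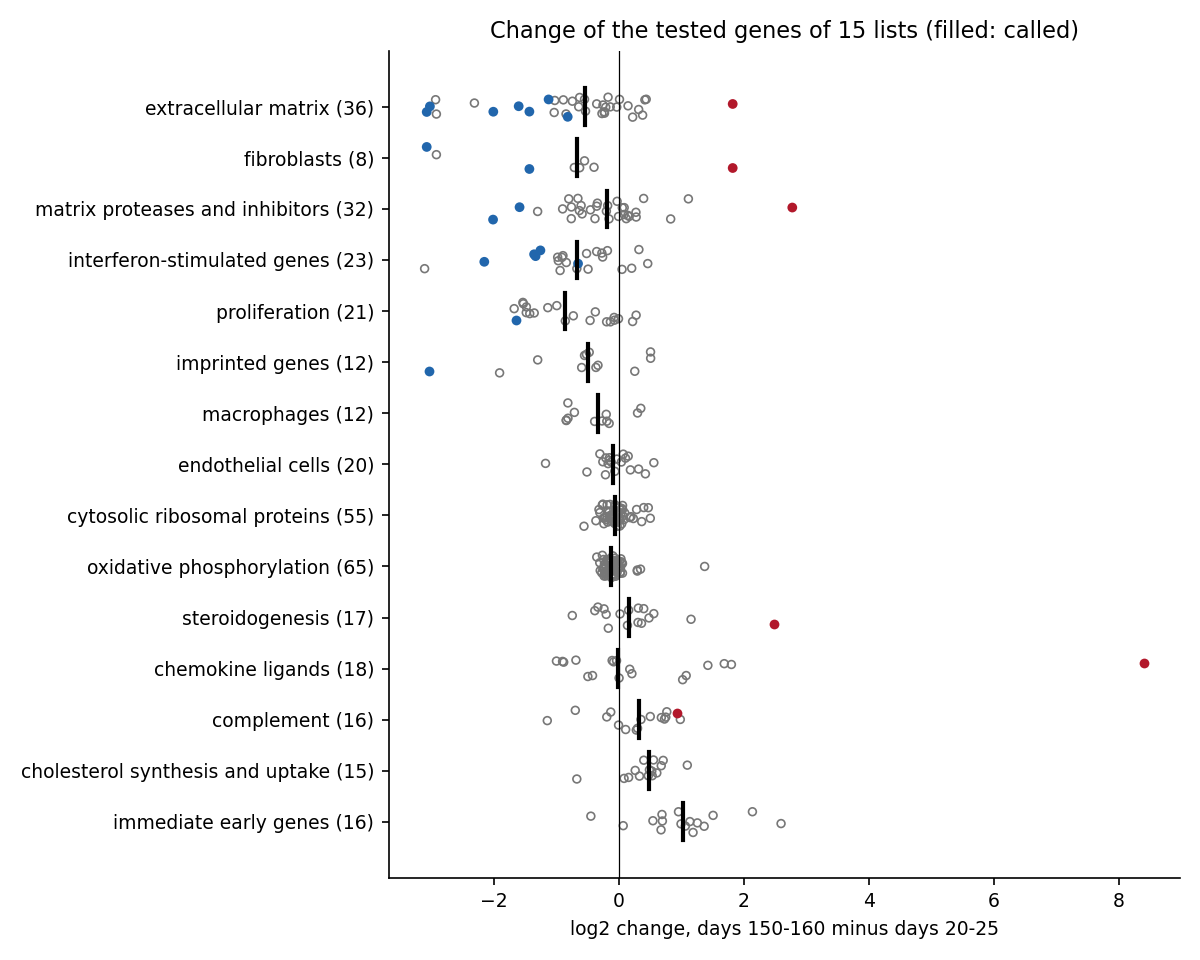
Log2 change, days 150-160 minus days 20-25 (horizontal axis), of every tested gene of 15 lists, with the number of genes in brackets; filled points passed the test (red higher, blue lower), open ones did not, and the bar is the list's median. The medians run from -0.85 for proliferation genes to 1.03 for immediate early genes, while those of the 55 ribosomal protein and 65 oxidative phosphorylation genes are -0.06 and -0.11.

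Other immune genes were called one by one. PYCARD, the adaptor of inflammasomes, had levels of 0.47, 0.63, -0.97 and 0.39 on days 150-160, against -2.11, -2.06, -1.99 and -1.87 on days 20-25, a change of 2.14 (SE 0.29, adjusted p = 0.00271). The early glands were nearly equal, and replicate 3 was the lowest of the later ones. C1R, a protease of the classical complement pathway, rose by 0.94 (SE 0.18, adjusted p = 0.0200). It was the 1 call among 16 complement genes, whose median was 0.33, where 1% of all genes were called higher. CLEC12B, an inhibitory C-type lectin, had a mean of -6.71 ± 0.64 on days 150-160, above background on 1 of 4 arrays, and -3.31 ± 0.76 on days 20-25, a fall of 3.40 (SE 0.77, adjusted p = 0.0369). KLRD1, a receptor chain of natural killer cells, was not above background on days 150-160 and was at least 2.85-fold lower (-7.55 ± 1.03 on days 150-160 and -4.93 ± 0.57 on days 20-25, adjusted p = 0.0442). It was the 1 call among 12 T and NK cell markers, where 1.18% of all genes were called lower. Of these 12 markers 8 had positive and 4 negative changes, with a median of 0.15. Their summed signal overlapped, from 1.15 to 3.23 on days 150-160 and from 1.36 to 3.18 on days 20-25. CLEC12B, KLRD1 and C1R missed the threshold without replicate 2 of days 20-25 (adjusted p = 0.111, 0.134 and 0.0752). CLEC12B and KLRD1 were also lost without replicate 4 of that group (adjusted p = 0.0524 and 0.0823) and with normexp (-1.61 with adjusted p = 0.111 and -0.66 with adjusted p = 0.228), while PYCARD was called without any 1 array. Of 12 macrophage markers 0 were called, and their median change of -0.32 was -0.03 within slide 1 and -0.83 within slide 2.

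CLDN10, ANXA8L1 and NEFM, dim or not above background in early glands, had the largest fitted rises after CCL11 among the named genes. For CLDN10 and NEFM the fitted rises, 4.76 and 4.74, rest on early signals not above background. Their place above PTGER3, at 4.56, is therefore not secured. CLDN10, a claudin of tight junctions, had levels of -2.88, -3.95, -3.71 and -4.35 on days 150-160, against -8.71, -7.83, -8.87 and -8.54 on days 20-25, where no array was above background. It was at least 7.72-fold higher (adjusted p = 2.93e-05). ANXA8L1, an annexin, had levels of -1.41, -1.40, 0.27 and -0.08 on days 150-160, against -7.31, -7.39, -4.34 and -5.28 on days 20-25, above background on 2 of the 4 early arrays, a change of 5.43 (SE 0.70, adjusted p = 0.00224). These were the 2 calls among 31 epithelial junction and membrane genes, whose median was 0.19, where 1% of all genes were called higher. The cadherin CDH1 and the keratins KRT19 and KRT5 of the same list had changes of 0.29, 0.22 and 0.30 that did not pass. NEFM, a neurofilament chain, had levels of -3.77, -3.01, -5.10 and -3.38 on days 150-160, against -9.32, -9.15, -7.21 and -8.54 on days 20-25, again with no early array above background, and was at least 7.25-fold higher (adjusted p = 0.00662). NCAM1, a neural and immune cell adhesion molecule, had -7.18 ± 1.23 on days 150-160, above background on 1 of 4 arrays, and -4.41 ± 0.95 on days 20-25, a fall of 2.78 (SE 0.54, adjusted p = 0.0199, and 0.0727 without replicate 2 of days 150-160), or of 0.91 with normexp (adjusted p = 0.115). Normexp also gave CLDN10 and NEFM smaller rises that passed, 1.92 (adjusted p = 0.000912) and 1.93 (adjusted p = 0.0087). The 8 tested nerve and glia markers had a median of -0.15, with NEFM and NCAM1 called, where 2.19% of all genes were called. Their summed signal ranged from 12.6 to 17.7 on days 150-160 and from 14.3 to 16.1 on days 20-25.

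Other named rises are given here one by one. DHRS9, a dehydrogenase of retinoids and steroids, rose by 3.53 (SE 0.43, adjusted p = 0.00137). ECE2, an endothelin-converting enzyme, rose by 2.36 (SE 0.35, adjusted p = 0.00461), with levels of 1.66, 2.25, 1.91 and 1.90 on days 150-160 against -0.03, -0.79, 0.37 and -1.29 on days 20-25. B3GAT2, a glucuronyltransferase of cell surface sugars, rose by 3.75 (SE 0.59, adjusted p = 0.00595). PPP2R2C, a regulatory subunit of a protein phosphatase, rose by 3.70 (SE 0.63, adjusted p = 0.00968), and PPP1R14C, an inhibitor of another, by 2.81 (SE 0.62, adjusted p = 0.0334) from a probe above background on 1 early array. DAPL1, a small death-associated protein, rose by 4.13 (SE 0.41, adjusted p = 0.000288), likewise above background on 1 early array. BREH1 rose by 2.64 (SE 0.54, adjusted p = 0.0271), with replicate 4 of days 150-160 left out for an outlier flag and 2 early arrays above background. GPX3, the secreted glutathione peroxidase, rose by 1.55 (SE 0.34, adjusted p = 0.0312). It was the 1 call among 28 antioxidant enzymes, whose median was -0.02, where 1% of all genes were called higher. ETNPPL, a lyase of phosphoethanolamine, rose by 3.68 (SE 0.87, adjusted p = 0.0454). It was not above background on replicate 4 of days 20-25, at -8.54, against -4.49 to -2.99 on the other early arrays, and without that array the change was 2.37 (SE 0.31, adjusted p = 0.00440). Its call was lost in 13 of the 16 fits without 1 array, with an adjusted p of 0.119 without replicate 4 of days 150-160. Without replicate 2 of days 150-160 BREH1 and GPX3 missed the threshold (adjusted p = 0.110 and 0.0985), and BREH1 and PPP1R14C did without replicate 4 of days 20-25 (adjusted p = 0.0540 and 0.0907). With normexp DAPL1, PPP2R2C, PPP1R14C and BREH1 rose by 2.01, 2.45, 1.09 and 1.26 and passed.

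MEST, an imprinted gene expressed from the paternal copy, had levels of -3.73, -4.94, -4.28 and -4.83 on days 150-160, against -1.22, -1.51, -1.98 and -0.95 on days 20-25, a change of -3.03 (SE 0.45, adjusted p = 0.00461). Its other probe, printed above, fell by 1.63 (SE 0.35, adjusted p = 0.0316, and 0.0823 without replicate 4 of days 20-25). MEST was the 1 call among 12 imprinted genes, where 1.18% of all genes were called lower. The median of the 12 was -0.49, and 6 had later arrays all below the earlier ones, where 5.65% of all genes did. PEG3 and PLAGL1 of this list had changes of -1.30 and -0.59 (adjusted p = 0.074 and 0.081).

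Genes of cell division had the lowest median of the lists plotted, -0.85 over 21 genes, with 19 of them negative and 1 called. Of all genes 1.18% were called lower. AURKB, a mitotic kinase, had levels of -3.68, -4.38, -4.43 and -4.31 on days 150-160, against -2.35, -2.61, -3.23 and -2.08 on days 20-25, a change of -1.63 (SE 0.30, adjusted p = 0.0133). CCNB2 and PRC1, a mitotic cyclin and a spindle protein, had changes of -1.67 and -1.53 (adjusted p = 0.075 and 0.055). The replication helicase genes MCM5, MCM6 and MCM7 had changes of -0.13, -0.46 and -0.07. With normexp, whose added offset of 50 makes the changes of dim probes smaller, the median of the list was -0.35. PCLAF, a clamp-binding protein of DNA replication outside the list, was not above background on any days 150-160 array and was at least 1.56-fold lower, with -7.93 ± 0.95 on days 150-160 and -5.80 ± 0.49 on days 20-25 (adjusted p = 0.0465). The 24 tested apoptosis genes had 5 positive and 19 negative changes, with a median of -0.17. Of all genes 1% were called higher and 1.18% lower. The calls of this list beside PYCARD were the falls of CASP6, an effector caspase, by 0.62 (SE 0.13, adjusted p = 0.0250) and BOK, a member of the BCL2 family, by 0.68 (SE 0.15, adjusted p = 0.0363). Without replicate 2 of days 150-160 AURKB, PCLAF and CASP6 missed the threshold (adjusted p = 0.0513, 0.143 and 0.0833), and BOK did without replicate 1 of days 20-25 (adjusted p = 0.0996). Without replicate 4 of days 20-25 PCLAF (adjusted p = 0.115), CASP6 (0.0558) and BOK (0.0508) were not called, which leaves the apoptosis list with the rise of PYCARD alone. PCLAF was also lost with normexp (-0.32, adjusted p = 0.484).

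The called probes without a symbol were 123, of which 46 were higher by 0.57 to 3.62 and 77 lower by 0.48 to 3.36 in log2 units. Most are probes to sequenced cDNA fragments that the gene table used here does not name. CDCA7, a gene linked to cell division, has a pair of probes with all 60 bases in common, and they gave -1.39 (SE 0.34, adjusted p = 0.0496) and -1.35 (SE 0.30, adjusted p = 0.0376).

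Days 40-45 levels place the changes in time. The mean of days 40-45 lay between the other 2 stages for 236 of the 245 probes (96.3%) and for 40.9% of all tested probes. Since the 245 were chosen for the distance between those stages, that share is a description. At the median the called rises had covered 42.9% of their log2 change by days 40-45 (quartiles 25.4% and 54.9%) and the called falls 47.4% (37.9% and 62.9%). ISG15, TNFAIP6 and PTGER3 had covered 92.9%, 71.4% and 70.9%. PYCARD and DHRS9 had covered 12.0% and 17.6%, and for NEFM the days 40-45 mean of -8.92 ± 0.47 (SD, n = 4) was no higher than that of days 20-25. The test of days 150-160 against days 40-45 called 13 probes (0.111%), and between 2 and 28 with 1 array left out. OXT (-3.92, adjusted p = 0.00827), DHRS9 (2.91, adjusted p = 0.0200) and PYCARD (1.88, adjusted p = 0.0247) passed it, as did CLDN10 and NEFM (adjusted p = 0.00827 and 0.0200). The test of days 40-45 against days 20-25 called 0 probes with limma, with 1136 at an unadjusted p under 0.05. PTGER3 and OXT were closest to the threshold among the named genes (3.23 and -3.27, both adjusted p = 0.0512). These comparisons share arrays with each other.

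**Figure D4:**
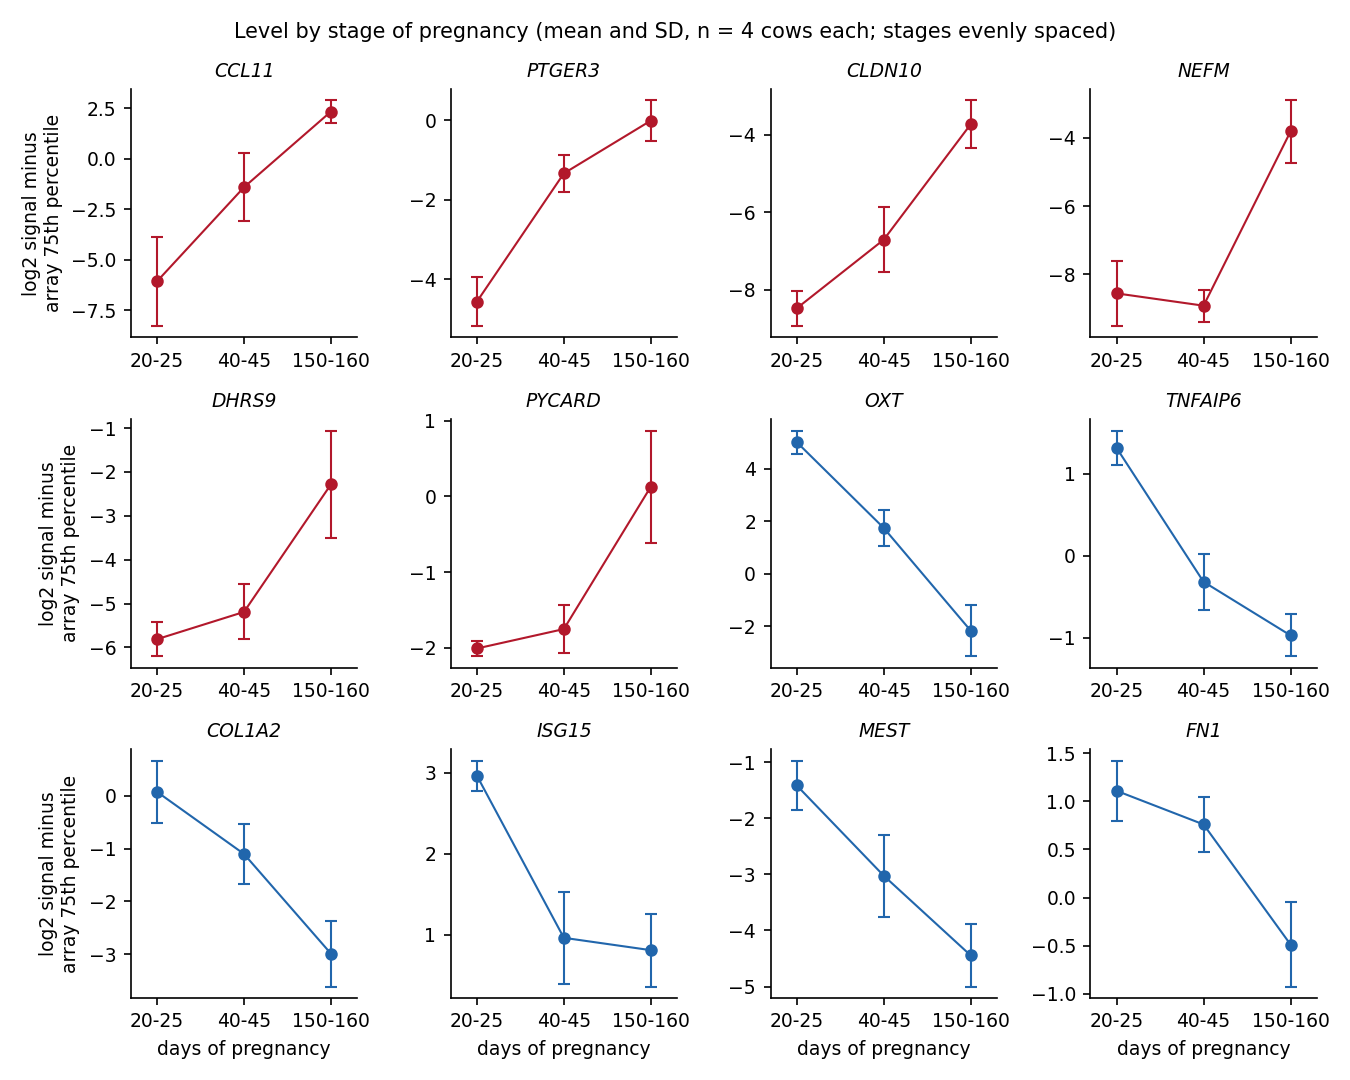
Mean levels with SD (n = 4 cows each) of 12 named genes on days 20-25, 40-45 and 150-160 of pregnancy (horizontal axes, stages evenly spaced, not to the scale of days; vertical axes, log2 signal minus the array's 75th percentile). ISG15 is at 0.96 on days 40-45, close to its 0.81 on days 150-160, while PYCARD and DHRS9 are near their early level on days 40-45 at -1.75 and -5.19.

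The slides held different cows. CCL11 changed by 9.81 within slide 1 and 6.99 within slide 2, OXT by -6.72 and -7.67, and COL1A2 by -2.96 and -3.18. The gap between the slides was largest among named genes for CCL11, followed by B3GAT2, with 5.04 and 2.47, and NEFM, with 5.85 and 3.63. STAR, not called, had 0.25 and -0.21, and the medians of the endothelial markers (0.30 and -0.39) and of the T and NK cell markers (0.42 and -0.21) differed in sign. All 245 called probes had 1 direction in both slides, which their choice by the fit over both slides largely fixes. A test of the difference between the slides called 0 probes with limma, with 857 at an unadjusted p under 0.05.

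**Figure D5:**
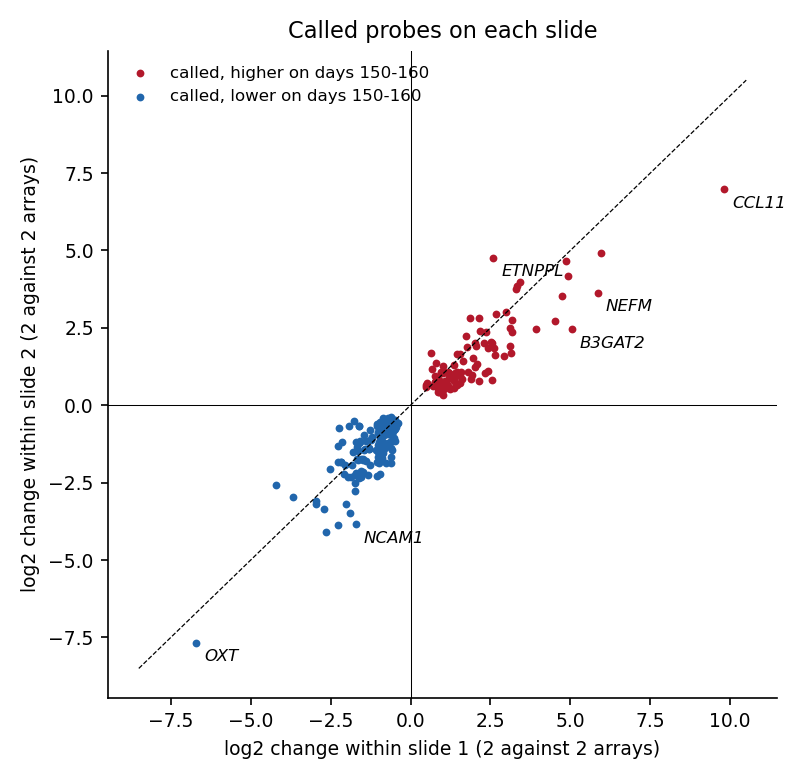
Log2 change, days 150-160 minus days 20-25, of the 245 called probes within slide 1 (horizontal axis) and within slide 2 (vertical axis), each from 2 against 2 arrays, with the line of equal change dashed. All 101 higher probes lie in the upper right and all 144 lower ones in the lower left, as their choice by the fit over both slides largely fixes; CCL11 is at 9.81 and 6.99.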

How the data were processed

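Total RNA was amplified, labelled with Cy3 and hybridised to 1-colour bovine arrays, 1 cow each, per the labels' protocols. Scans were read with Agilent Feature Extraction 9.5, per the submitters' processing notes. The deposited processed signal is an intensity with spatial and multiplicative detrending on and surrogates in place of signals too low to measure, per the file headers. The deposited log2 value table differs from log2 processed signal by a constant per array (largest departure 0.0046, medians -3.18 to -2.98) and was an alternative; how the authors made it is not given in the sources used here. Control spots (536 of 15744) were dropped and spots with outlier flags set to missing. Levels are log2 processed signal minus the array's 75th percentile. Probes well above background on at least 3 of 4 arrays of either group were tested, 11718 of 15208. All 16 arrays entered limma 3.58.1 (R 4.3.3) with group and slide (11 residual and 2.60 prior degrees of freedom), two-sided, with Benjamini-Hochberg adjustment. The precision is limited by 4 arrays per group.

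Names came from RefSeq (ARS-UCD2.0) by accession for 2496 probes, gene ID for 1980, symbol for 1385, a human gene in the description for 981 and the file's own name for 68; 8243 have none and 55 only a locus number. In 43 lists (28 pathways, 15 cell types) a gene is its brightest probe. Genes named are the 15 largest rises and 15 largest falls without overlap, up to 5 called members per list and 11 fixed genes; others served as list examples. The comparison, its genes and its lists were chosen with earlier results of these data known. On simulated data for this comparison (11693 probes) the fit found 68%, 78%, 94% and 94% of probes changed by 1, 1.5, 2 and 3 log2 units, with 8 unchanged probes called. The simulation drew independent normal noise with the same SD in every group. It had no slide effect and no outlying array, so the rates may not hold for the real arrays. Alternatives covered background correction, scaling, filters, slide and replicate blocks, array weights and leaving out each array. Normexp was run with an offset of 50 added to every signal, which makes the log2 changes of dim probes smaller.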

Additional observations from a re-analysis of the deposited data

Results flagged for a closer look

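Among the named genes, 6 of 110 groups of 4 arrays had 1 array whose gap to its nearest neighbour, as a share of the group's range, exceeded Dixon's critical value for 4 samples, where chance alone flags about 1 in 20 groups. DAPL1 was flagged in both groups: replicate 1 of days 150-160 was the highest at -2.16 (the others -3.77 to -3.55), and replicate 2 of days 20-25 the lowest at -8.39 (the others -7.21 to -6.97). AURKB had its highest later value in replicate 1, at -3.68 (the others -4.43 to -4.31). PYCARD had its lowest later value in replicate 3, at -0.97 (the others 0.39 to 0.63). GPX3 had its highest later value in replicate 2, at 0.64 (the others 0.09 to 0.18). FN1 had its highest early value in replicate 4, at 1.58 (the others 0.93 to 1.00), the array that stood apart on the second principal component. In each of these genes the later and the earlier arrays did not overlap.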

How the results depend on the processing

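The 245 probes called on days 150-160 against days 20-25 became 192 without the slide block, 235 with slide as a random block, 4 and 7 within slides 1 and 2, 91 with the 8 arrays alone and 723 with array quality weights. Normexp gave 202, median scaling 268, quantile normalization 311, the deposited log2 values 249, a floor at background 238, and no filter or a filter on all 8 arrays 187 and 203. Leaving out 1 array gave 98 to 355, the lowest without replicate 2 of days 150-160 and the highest without cyclic replicate 1. The share of calls that were higher was 41.2%, and 50.4% and 51.0% with median scaling and normexp.

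Days 40-45 against days 20-25 had 0 calls, against 1 without the slide block or with it random, 390 with array weights, 4 with normexp, 2 with median scaling, 3 with quantile normalization, 12 without a filter, 5 with the filter on all 8 arrays, 2 with the floor, and 0 to 8 with 1 array left out. Days 150-160 against days 40-45 had 13, against 8 without the slide block, 1 and 0 within slides 1 and 2, 23 with array weights, 5 with the filter on all 8 arrays, and 2 to 28 with 1 array left out. The slide difference had 0, against 1 with the 8 arrays alone, 1 without a filter, and 0 to 589 with 1 array left out. The highest of these came without replicate 3 of days 20-25, which leaves replicate 4 as the only array of that group on slide 2. The causes were not tested.

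Normexp ended 7 of the 48 named calls. The fit of the 8 arrays alone ended 23 of them and kept 25. Among those it ended were COL4A1, MMP2 and ADAM12 (limma adjusted p = 0.0809, 0.0941 and 0.084), which were called without any 1 array. NCAM1, FGFR2 and BREH1 were also lost with the 8 arrays alone (adjusted p = 0.133, 0.143 and 0.0886). Of 48 named genes that were called, 18 stayed called under every alternative outside single slides, 21 without any 1 array, and 0 reversed. STAR, not called, reversed to -0.21 within slide 2 and to 0.00 with quantile normalization, and lay between -0.052 and 0.12 without 1 array, below 0 in 3 of those fits.

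Replicate numbers give no pairing in the labels. Arrays with the same number correlated at 0.06 to 0.29 in their deviations from the group means, 1 of 4 over 0.1, and all 8 arrays correlated best with their own number, which also marks the same slide and column. With a replicate block 225 probes were called between days 150-160 and 20-25.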

Other observations

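Immediate early genes, which cells switch on within minutes of a stimulus, had a median change of 1.03 over 16 tested genes, 15 of them positive and 0 called by limma (2.19% of all genes were called). FOS, a subunit of the transcription factor AP-1, had levels of 1.45, -0.16, -2.64 and 1.02 on days 150-160, against -3.86, -1.20, -4.20 and -1.46 on days 20-25, a change of 2.60 (SE 0.88, adjusted p = 0.15). The groups overlapped, and replicate 3 was low on days 150-160. CCN1, a secreted matricellular protein, had a change of 2.14 (adjusted p = 0.076).

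Cholesterol supply genes had a median of 0.49 over 15 tested genes, 14 of them positive and 0 called. FDFT1, squalene synthase, had a change of 1.10 (adjusted p = 0.19). Of 27 heat shock and chaperone genes 0 were called, with a median of 0.24. IGFBP2, a binding protein of insulin-like growth factors, had levels of 1.13, -3.99, 0.35 and 1.27 on days 150-160, against -5.78, -5.45, -1.56 and -5.04 on days 20-25, a change of 4.15 (SE 1.02) that missed the threshold (adjusted p = 0.0522). Without replicate 4 of days 20-25 the 12 tested genes of its list, the IGF system, held 1 call, a rise, against 0 with it. In each group 1 cow stood far from the others in this gene.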
